A study of Rattus norvegicus with 11 samples.

Results

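The spindle, kinetochore and mitotic exit genes are a list of 54 genes whose products enter mitosis, build the spindle, attach chromosomes to it, compact and separate them and divide the cell. A member was taken as measured where a probe set of the array carried its symbol and no other, and the brightest probe set over all 11 arrays stood for it where there were several. On this rule 34 of the 54 genes were measured, among 10411 genes named on the array and 15866 probe sets tested. The measured genes were 9 of 13 listed cyclins and kinases, 5 of 9 kinesins, 4 of 8 kinetochore genes and 4 of 7 condensin and chromosome structure genes. With them were 4 of 7 spindle assembly genes and 3 of 5 passenger complex and cytokinesis genes. The last function, named for the anaphase-promoting complex (APC/C) and anaphase, had 5 of 5 measured: Cdc20, Ube2c, Espl1, Pttg1 and Cdca3. None of these is a subunit of the APC/C, and Cdca3 is a protein of mitotic entry. The 20 genes without such a probe set were Ccna2, Bub1, Ttk, Pbk, Kif11, Kif20b, Kif23, Kif4a, Cenpa, Cenpf, Ndc80, Nuf2, Ncapg, Ncaph, Smc2, Tpx2, Ckap2, Nusap1, Ect2 and Prc1, and they were not analysed here.

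Mitosis is driven by Cdk1 bound to a B-type cyclin and by the Polo and Aurora kinases. Kinesins move along or take apart microtubules, the Ndc80 complex joins kinetochores to them, condensin compacts chromosomes, and the APC/C marks securin and cyclin B for destruction so that separase can open cohesin and the cell can leave mitosis. Transcription of these genes peaks late in the cell cycle through the MuvB core with B-Myb and FoxM1 at CHR elements, while in quiescent cells MuvB together with E2F4 and a pocket protein forms DREAM and holds them down. E2F1 is best known for the earlier wave of genes for S phase.

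The cells were REF52, an established line of rat embryo fibroblasts, grown in 10% serum and then starved in 0.25% serum for 48 hours before infection. Infection was with an adenovirus expressing E2F1 or with the control adenovirus labelled CMV, so that every group carried a virus and had been starved. Afterwards they received serum, serum with LY294002, an inhibitor of phosphoinositide 3-kinase, or medium for serum deprivation. E2F1 cells were hybridised on 2 arrays in each of the 3 media; CMV cells were hybridised on 2 arrays in serum, 2 with LY294002 and 1 in deprivation. Neither harvest time nor inhibitor dose is given in the sources used here. Whether 2 arrays of a group stand for separate cultures is not stated, so each p-value reflects array-to-array spread that may be technical, and precision is limited by how few arrays there are.

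Of 12 fibroblast markers, 7 (Col1a1, Col1a2, Col3a1, Vim, Fn1, S100a4 and Sparc) had signals above 500 on every array, while Thy1 and Lum stayed below 150 on every array. Of 19 measured markers of other cell types, 0 were above 500 on every array and 13 were below 150 on every array; their summed signal ran from 1291 to 1994 on E2F1 arrays and from 1457 to 1985 on CMV arrays. Averaged over media, the fibroblast markers Pdgfrb and Sparc were called lower in E2F1 cells at an adjusted p under 0.05. Of the other markers Kdr and Tie1 were called higher and Ptprc lower, each with a signal of at most 54.0 on every array. Expression of the E2F1 transgene could not be checked, since 0 probe sets carry E2f1 as their single symbol. The 3' minus 5' difference of the Gapdh and actin control probe sets, a sign of RNA integrity or labelling length, was 0.19 and 0.18 on E2F1 serum arrays, against 0.14 and 0.12 on CMV serum arrays. It was 0.26 and 0.90 on E2F1 arrays with LY294002, against 0.19 and 0.33 on CMV arrays with LY294002, and 0.56 and 0.51 on deprived E2F1 arrays, against 0.76 on the deprived CMV array. Its part in the results below was not tested.

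Arrays of one group did not always give the mitotic genes at one level. All 34 genes were higher on the second CMV serum array than on the first, by a median of 1.45 on the log2(signal + 16) scale, and 0.536% of all probe sets differed upward by more. On the second CMV array with LY294002, 33 of 34 were lower than on the first, with a median of -0.80. Of all probe sets, 9.4% differed downward by more. Between the E2F1 arrays with LY294002, 31 of 34 were lower on the second (median -0.70), and 13.3% of all probe sets differed downward by more. The 2 E2F1 serum arrays differed by a median of -0.29 and the 2 deprived E2F1 arrays by -0.08. By the median of these genes, the second CMV serum array was thus the highest CMV array, and the summaries of the comparisons that use it are given below with and without it.

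**Figure D1:**
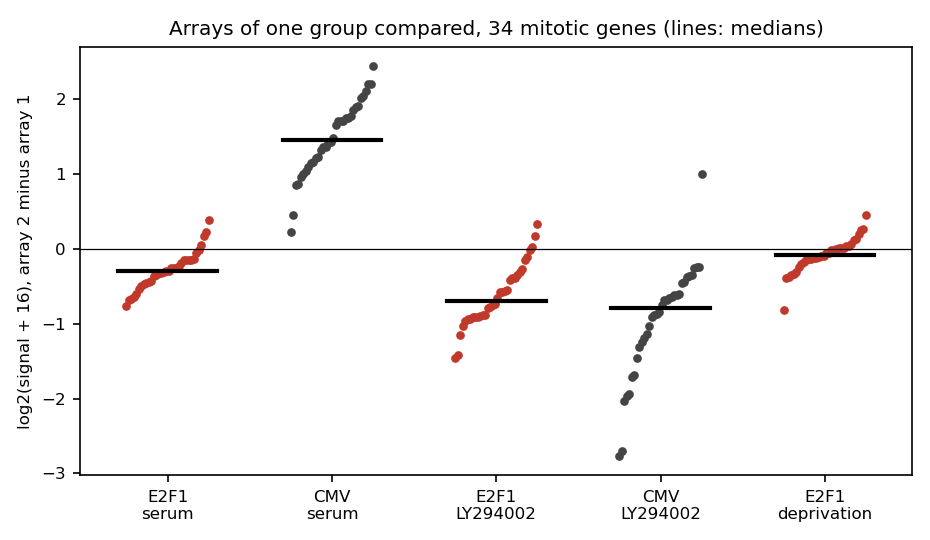
Difference between the 2 arrays of a group (array 2 minus array 1, log2(signal + 16), vertical axis) for the 34 mitotic genes, 1 point per gene, in order of size within each group, with lines at the medians. E2F1 groups are red and CMV groups grey. All 34 points of CMV serum lie above 0 with a median of 1.45, and 33 of the 34 points of CMV with LY294002 lie below 0.

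Averaged over the 3 media, all 34 measured mitotic genes rose in E2F1 cells relative to CMV cells. The median log2 change was 2.56, against -0.04 over all probe sets, and single genes ran from 0.82 for Smc4 to 4.44 for Kif18b. Of all 15866 probe sets, 9.23% were called higher at an adjusted p under 0.05 in limma, against 34 of 34 mitotic genes. Without the second CMV serum array 34 of 34 were called and the median was 2.76, and without the first 33 of 34 were called and it was 2.39. In this bulk RNA, more cells in mitosis and more of each RNA per cell cannot be told apart. For 30 of the 34 genes, each of the 6 E2F1 arrays had a higher signal than each of the 5 CMV arrays, an order found in 6.05% of all probe sets. The 4 genes whose arrays overlapped, Cdc20, Ube2c, Pttg1 and Cdca3, all belong to the APC/C and anaphase group. In each of these 4, at least 1 deprived E2F1 array lay below the second CMV serum array.

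By function, the median log2 changes averaged over media were 2.62 for cyclins and kinases, 2.78 for kinesins, 2.62 for kinetochore genes, 3.05 for condensin and chromosome structure, 2.17 for spindle assembly, 2.63 for passenger complex and cytokinesis, and 2.34 for APC/C and anaphase. Genes within a function spread more widely than these medians, the condensin and chromosome structure genes from 0.82 to 3.95. Differences between functions were not tested.

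**Figure D2:**
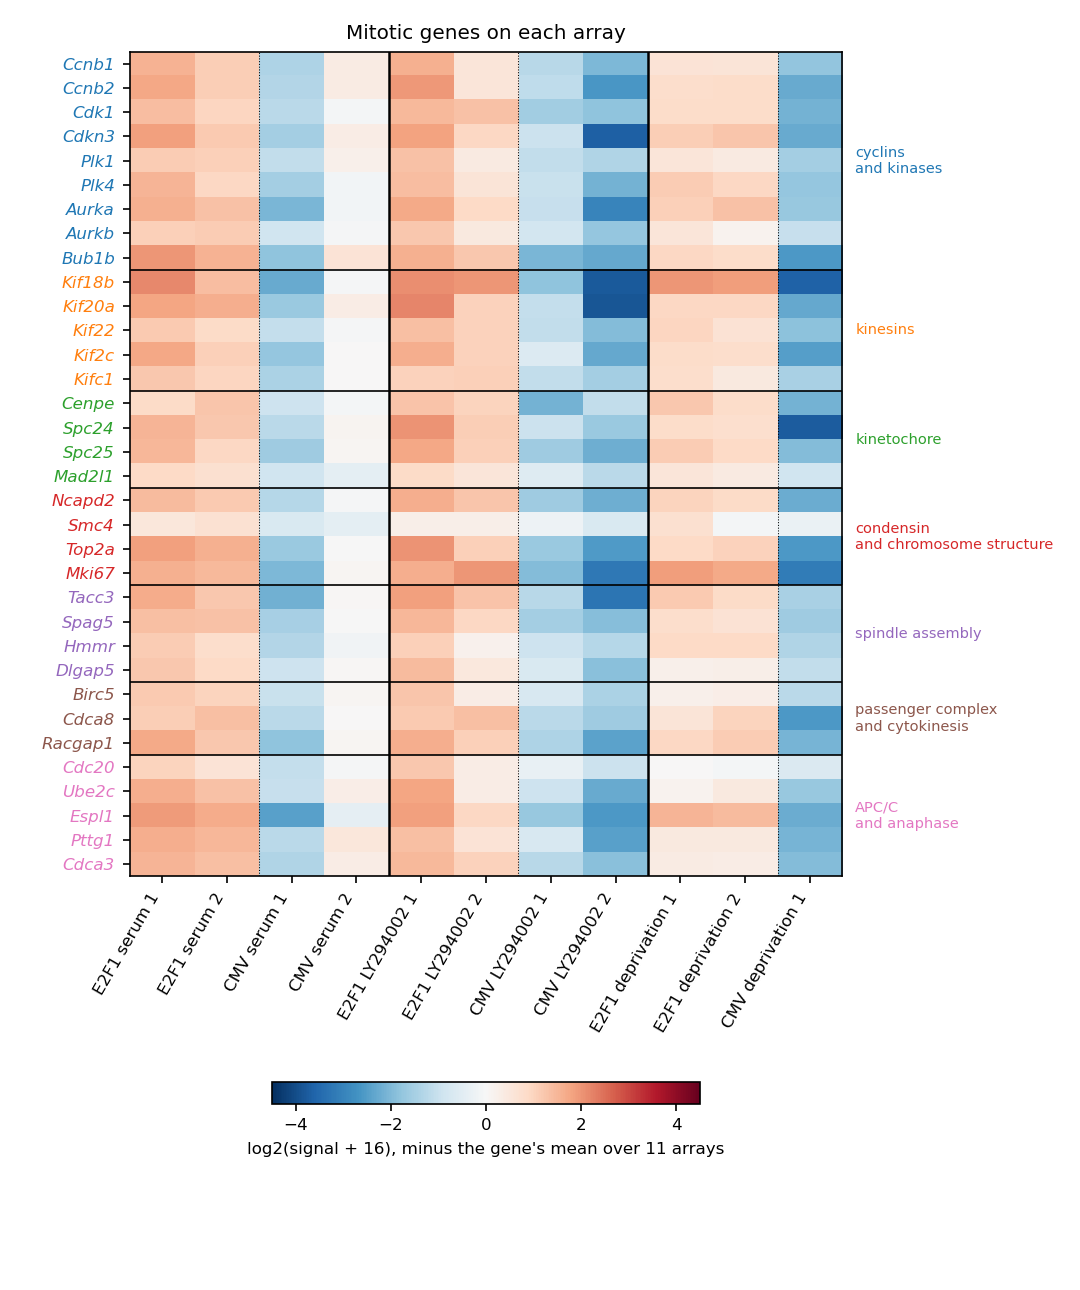
Signal of the 34 mitotic genes (rows, grouped and coloured by function) on the 11 arrays (columns), as log2(signal + 16) minus the gene's mean over all arrays; red is above the mean and blue below. E2F1 columns are red and CMV columns blue for most genes, with the second CMV serum array near 0 and the deprived E2F1 arrays pale in the APC/C and anaphase rows.

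The promoters of 31 of the 34 genes were found in RefSeq (build GRCr8), as 250 bases before and 50 after the annotated start; Aurkb, Racgap1 and Ube2c had no entry, and for Cdkn3 and Kif2c the first of 2 entries was used. These windows were searched on both strands for the CHR, the letters TTNGAA where N was T or C, and for the CCAAT box, its own 5 letters. E2F sites were searched as TTNNCGC, where each N was C or G. A CHR was found in 22 of 31 (71.0%), against 13.6% of the 9466 promoters of genes on the array. These 9466 are entries, so a gene with several entries counts more than once. A CCAAT box was found in 25 of 31 (80.6%), against 37.1%, and at least 2 of them in 19 of 31 (61.3%), against 12.8%. CHR and CCAAT together were present in 19 of 31 (61.3%), against 5.66% of the array promoters. An E2F spelling was found in 7 of 31 (22.6%), against 15.8%, and all 3 kinds of motif in 4 of 31 (12.9%), against 0.792%. A match is a description of letters in a window, and a promoter without one may hold other spellings or sites outside it.

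**Figure D3:**
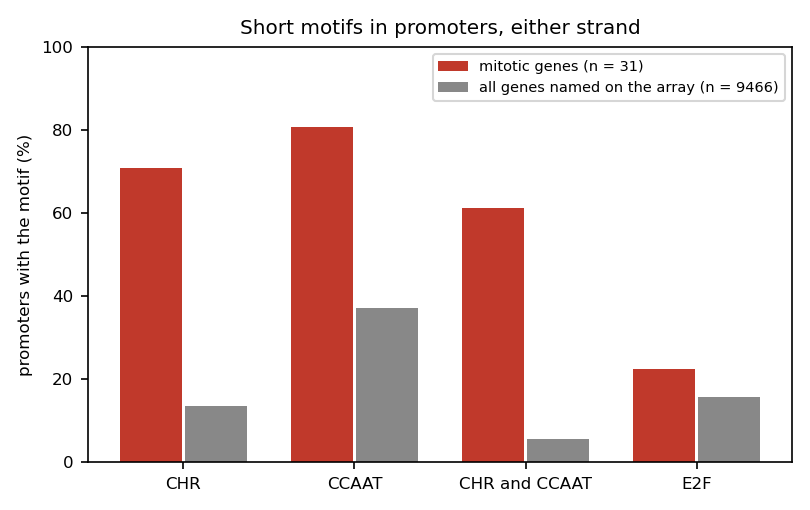
Share of promoters (%, vertical axis from 0) holding each kind of motif on either strand, for the 31 mitotic genes with a promoter and for the 9466 promoter entries of genes on the array. The CHR stands at 71.0% against 13.6%, the CCAAT box at 80.6% against 37.1%, CHR with CCAAT at 61.3% against 5.66%, and the E2F spellings at 22.6% against 15.8%.

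Promoters of 7 genes are printed, each the 250 bases before the start, 5' to 3' on the gene's strand, with every CHR, CCAAT and E2F match in capitals on either strand. Bub1b, Kif18b and Spc24 had the largest changes in the functions listed as cyclins and kinases, kinesins, and kinetochore. Mki67, Smc4, Ccnb2 and Cdk1 are the 4 that hold all 3 kinds, picked after the matches were seen. In build GRCr8 they lie at chr3:126016817-126017066 on the plus strand (Bub1b), chr10:88389692-88389941 on the minus strand (Kif18b), chr8:28581300-28581549 on the minus strand (Spc24), chr1:199952594-199952843 on the minus strand (Mki67), chr2:155550012-155550261 on the plus strand (Smc4), chr8:79981659-79981908 on the minus strand (Ccnb2) and chr20:19265043-19265292 on the plus strand (Cdk1).
Bub1b: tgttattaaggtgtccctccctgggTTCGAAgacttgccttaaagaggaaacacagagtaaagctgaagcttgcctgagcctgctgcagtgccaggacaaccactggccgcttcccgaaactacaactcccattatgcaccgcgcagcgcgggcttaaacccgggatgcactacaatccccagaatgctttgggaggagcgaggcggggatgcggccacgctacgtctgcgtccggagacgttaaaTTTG
Kif18b: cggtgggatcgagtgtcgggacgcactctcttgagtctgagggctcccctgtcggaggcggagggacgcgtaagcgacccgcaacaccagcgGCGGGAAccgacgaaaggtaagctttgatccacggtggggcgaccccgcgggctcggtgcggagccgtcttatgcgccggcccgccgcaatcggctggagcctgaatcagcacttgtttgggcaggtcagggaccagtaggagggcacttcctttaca
Spc24: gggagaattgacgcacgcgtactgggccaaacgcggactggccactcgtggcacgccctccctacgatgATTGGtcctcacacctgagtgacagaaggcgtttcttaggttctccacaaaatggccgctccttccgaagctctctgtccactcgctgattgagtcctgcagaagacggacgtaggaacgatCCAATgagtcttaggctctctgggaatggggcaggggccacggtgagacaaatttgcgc
Mki67: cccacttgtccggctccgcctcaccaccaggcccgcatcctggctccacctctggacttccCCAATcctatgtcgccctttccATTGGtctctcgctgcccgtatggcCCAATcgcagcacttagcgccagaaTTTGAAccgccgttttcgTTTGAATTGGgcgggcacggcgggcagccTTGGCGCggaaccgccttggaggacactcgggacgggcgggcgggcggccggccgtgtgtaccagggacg
Smc4: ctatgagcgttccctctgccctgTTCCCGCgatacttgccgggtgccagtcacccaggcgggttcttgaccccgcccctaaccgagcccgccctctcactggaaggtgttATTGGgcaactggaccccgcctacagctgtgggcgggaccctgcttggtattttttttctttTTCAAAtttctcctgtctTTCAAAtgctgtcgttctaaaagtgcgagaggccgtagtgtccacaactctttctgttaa
Ccnb2: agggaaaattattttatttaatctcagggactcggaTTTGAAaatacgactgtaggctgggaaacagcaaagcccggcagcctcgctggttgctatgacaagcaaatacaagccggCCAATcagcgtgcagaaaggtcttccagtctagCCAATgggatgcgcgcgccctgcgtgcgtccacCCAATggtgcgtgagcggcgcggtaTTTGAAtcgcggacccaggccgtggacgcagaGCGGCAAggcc
Cdk1: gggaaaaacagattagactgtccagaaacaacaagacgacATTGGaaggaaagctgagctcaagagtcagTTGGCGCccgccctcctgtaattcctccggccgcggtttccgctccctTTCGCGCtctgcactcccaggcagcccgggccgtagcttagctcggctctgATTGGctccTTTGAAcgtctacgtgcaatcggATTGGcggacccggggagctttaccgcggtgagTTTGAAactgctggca
The last capitals of Bub1b are the first 4 bases of a CHR that runs over the start, from base -4 to base 2, counted with -1 just before the start and no base 0. Cdk1 has CHR matches from -72 to -67 and from -16 to -11, CCAAT boxes from -210, -81 and -49, and E2F spellings from -180 and -132. In Ccnb2 CCAAT boxes begin at -134, -101 and -68, followed by a CHR from -43 to -38. Mki67 has 4 CCAAT boxes, and its second CHR, from -99 to -94, shares its last base with the last of them, which starts at -94. Smc4 carries its CHR matches at -78 and -60 on the other strand. The Kif18b window holds an E2F spelling from -158 to -152 and no CHR or CCAAT match, and that of Spc24 holds 2 CCAAT boxes, from -181 and from -59, and neither of the others. Over the 31 genes, the median log2 change with E2F1 was 2.54 for the 22 with a CHR and 2.78 for the 9 without, and 2.62 for the 7 with an E2F spelling and 2.56 for the 24 without.

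Among cyclins and kinases, 9 of 9 rose on average over media. Cdk1, the kinase that starts mitosis and whose promoter is printed above, had signals of 2182 and 1607 in E2F1 cells in serum, against 341 and 777 in CMV cells in serum. With LY294002 its signals were 2301 and 2064 in E2F1 cells, against 266 and 221 in CMV cells, and in deprivation 1466 and 1480.2 in E2F1 cells, against 176 in CMV cells. The lowest E2F1 array was above the highest CMV array, the second in serum, and the change was 6.15-fold (log2 2.62 ± 0.22, SE, adjusted p = 0.000843). Ccnb1, the B-type cyclin that activates Cdk1, had 2025 and 1463 in E2F1 cells in serum, against 245 and 877 in CMV cells; 2034 and 984 in E2F1 cells with LY294002, against 268 and 153 in CMV cells; and 1027 and 1017 in deprived E2F1 cells, against 186 in deprived CMV cells. Its groups did not overlap either, with an average change of 4.95-fold (log2 2.31 ± 0.36, SE, adjusted p = 0.00537), and a second, dimmer probe set of Ccnb1 gave 2.65. Its paralog Ccnb2 ranged from 907 to 2439.8 on E2F1 arrays and from 88.2 to 802 on CMV arrays (6.52-fold higher, log2 2.70 ± 0.44, SE, adjusted p = 0.00607).

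Bub1b, the checkpoint protein BubR1, had the largest log2 change of this function. Its signals were 544 and 400.3 in E2F1 cells in serum, against 23.8 and 199 in CMV cells; 410.0 and 310.1 in E2F1 cells with LY294002, against 18.2 and 12.9 in CMV cells; and 256 and 233 in deprived E2F1 cells, against 7.60 in deprived CMV cells. Apart from the second in serum, all CMV arrays were close to the offset of 16, so no fold is given for its log2 change of 3.14 ± 0.41 (SE, adjusted p = 0.0029). Aurka, the Aurora kinase of spindle poles, had 577 and 468 in E2F1 cells in serum, against 30.7 and 159.8 in CMV cells; 614 and 347 in E2F1 cells with LY294002, against 78.3 and 8.51 in CMV cells; and 388 and 470.1 in deprived E2F1 cells, against 42.9 in deprived CMV cells. Every E2F1 array again exceeded every CMV array (log2 2.93 ± 0.46, SE, adjusted p = 0.00537).

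Aurkb, the catalytic subunit of the chromosomal passenger complex, had the smallest change among the kinases. In serum it had 560.3 and 583 in E2F1 cells, against 128 and 248 in CMV cells, with LY294002 606 and 352 in E2F1 cells, against 138 and 65.3 in CMV cells, and in deprivation 378 and 289 in E2F1 cells, against 115 in CMV cells. The lowest E2F1 array, the second deprived one, was above the highest CMV array, the second in serum, and the average change was 3.24-fold (log2 1.70 ± 0.26, SE, adjusted p = 0.00462). Plk1, the Polo kinase needed from mitotic entry to cytokinesis, had 1103 and 1063 in E2F1 cells in serum, against 219 and 589 in CMV cells; 1253 and 658 in E2F1 cells with LY294002, against 219 and 183 in CMV cells; and 739 and 669 in deprived E2F1 cells, against 162 in deprived CMV cells. Its arrays did not overlap, and it was 3.69-fold higher on average (log2 1.88 ± 0.28, SE, adjusted p = 0.00431). Plk4, the kinase of centriole duplication, ranged from 240.5 to 475 on E2F1 arrays and from 22.9 to 141 on CMV arrays (log2 2.46 ± 0.34, SE, adjusted p = 0.0036). Cdkn3, a phosphatase that acts on cyclin-dependent kinases, ranged from 523 to 1005 on E2F1 arrays and from 5.98 to 338 on CMV arrays (log2 3.09 ± 0.55, SE, adjusted p = 0.00854).

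The 5 measured genes listed as kinesins all rose, with Cenpe counted among the kinetochore genes. Kif18b, a kinesin that shortens astral microtubules and whose promoter above holds an E2F spelling only, changed most of all 34 genes. It had 1881 and 1099 in E2F1 cells in serum, against 73.6 and 396 in CMV cells; 1811 and 1685 in E2F1 cells with LY294002, against 106 and 15.1 in CMV cells; and 1693 and 1557 in deprived E2F1 cells, against 18.7 in deprived CMV cells. No E2F1 array was below 1099 in any medium, and on the second CMV array with LY294002 and the deprived one the signal was about that of the offset (log2 4.44 ± 0.49, SE, adjusted p = 0.00167). Kifc1, a minus-end motor that gathers spindle poles, had the smallest change: 1141 and 967 in E2F1 cells in serum, against 174 and 489.7 in CMV cells; 1024 and 1046 in E2F1 cells with LY294002, against 220.4 and 158 in CMV cells; and 850.4 and 662 in deprived E2F1 cells, against 169 in deprived CMV cells. Its arrays were also apart (4.20-fold higher, log2 2.07 ± 0.26, SE, adjusted p = 0.00257). Kif20a, a motor of the central spindle, ranged from 802 to 1959 on E2F1 arrays and from 13.9 to 520.4 on CMV arrays (log2 3.25 ± 0.57, SE, adjusted p = 0.00827). Kif22, which pushes chromosome arms toward the equator, ranged from 1207 to 1999 on E2F1 arrays and from 186 to 728 on CMV arrays (4.98-fold higher, log2 2.32 ± 0.24, SE, adjusted p = 0.00138). Kif2c, which takes microtubules apart at centromeres, ranged from 468 to 915 on E2F1 arrays and from 34.0 to 265 on CMV arrays (log2 2.78 ± 0.42, SE, adjusted p = 0.0046), and its second probe set gave 2.23.

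At the kinetochore, 4 of 4 genes rose. Spc24 and Spc25 form the end of the Ndc80 complex that faces the chromosome. Spc24 had 1686 and 1349.5 in E2F1 cells in serum, against 240.3 and 623 in CMV cells; 2351 and 1240.0 in E2F1 cells with LY294002, against 285 and 171 in CMV cells; and 1026 and 989 in deprived E2F1 cells, against 28.4 in deprived CMV cells. The deprived CMV array was the lowest of all, and the average log2 change was 3.10 ± 0.29 (SE, adjusted p = 0.00102). Spc25 ranged from 985 to 1755 on E2F1 arrays and from 99.3 to 556 on CMV arrays (6.72-fold higher, log2 2.75 ± 0.33, SE, adjusted p = 0.00225). Cenpe, the kinesin that carries chromosomes along the spindle from the kinetochore, ranged from 252 to 347 on E2F1 arrays and from 18.1 to 125 on CMV arrays (log2 2.50 ± 0.24, SE, adjusted p = 0.00113). Mad2l1, the spindle checkpoint protein that blocks Cdc20, had the smallest change but a narrow spread. It had 416 and 372 in E2F1 cells in serum, against 111 and 157 in CMV cells; 412 and 328 in E2F1 cells with LY294002, against 140.5 and 85.7 in CMV cells; and 324 and 296 in deprived E2F1 cells, against 109 in deprived CMV cells. Its groups were apart and it was 2.80-fold higher on average (log2 1.48 ± 0.16, SE, adjusted p = 0.00157).

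All 4 condensin and chromosome structure genes rose, with Smc4 the smallest. Mki67, the Ki-67 protein that coats mitotic chromosomes, had 2486 and 2230.5 in E2F1 cells in serum, against 185 and 849 in CMV cells; 2532 and 3205 in E2F1 cells with LY294002, against 194 and 72.7 in CMV cells; and 3041 and 2686 in deprived E2F1 cells, against 76.7 in deprived CMV cells. All 6 E2F1 arrays were far above all 5 CMV arrays, a 15.5-fold average change (log2 3.95 ± 0.40, SE, adjusted p = 0.00127). Top2a, the topoisomerase that untangles sister chromatids, had 3226 and 2705 in E2F1 cells in serum, against 265 and 871 in CMV cells; 3648 and 1869.6 in E2F1 cells with LY294002, against 264 and 136 in CMV cells; and 1653 and 1799 in deprived E2F1 cells, against 133 in deprived CMV cells. It was 9.60-fold higher on average (log2 3.26 ± 0.35, SE, adjusted p = 0.00144), its groups did not overlap, and its second probe set gave 3.21. Ncapd2, a subunit of condensin, ranged from 456 to 789 on E2F1 arrays and from 38.9 to 229.8 on CMV arrays (log2 2.83 ± 0.24, SE, adjusted p = 0.000889).

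Smc4, an ATPase core subunit of the same complex, was dim on all arrays. Its signals were 144 and 164 in E2F1 cells in serum, against 54.1 and 66.1 in CMV cells; 119 and 118 in E2F1 cells with LY294002, against 80.9 and 54.3 in CMV cells; and 169 and 89.1 in deprived E2F1 cells, against 75.7 in deprived CMV cells. Even so, every E2F1 array was above every CMV array, with a log2 change of 0.82 ± 0.18 (SE, adjusted p = 0.0182). Its promoter, printed above, is one of the 4 with CHR, CCAAT and E2F matches, like that of Mki67.

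Spindle assembly genes rose in 4 of 4 cases. Tacc3, which steadies kinetochore fibres downstream of Aurora A, had 793 and 576 in E2F1 cells in serum, against 41.1 and 247 in CMV cells; 896 and 593 in E2F1 cells with LY294002, against 89.8 and 9.98 in CMV cells; and 561 and 441 in deprived E2F1 cells, against 76.5 in deprived CMV cells. The E2F1 arrays all exceeded the CMV arrays, of which the second with LY294002 was lowest (log2 2.93 ± 0.50, SE, adjusted p = 0.0071). Dlgap5, which stabilises spindle microtubules near chromosomes, had the smallest change of this function. It had 1396 and 1137 in E2F1 cells in serum, against 308 and 613 in CMV cells; 1629 and 846 in E2F1 cells with LY294002, against 369 and 152 in CMV cells; and 706 and 725 in deprived E2F1 cells, against 268 in deprived CMV cells. Its groups were separate by the gap between the deprived E2F1 arrays and the second CMV serum array (3.24-fold higher, log2 1.70 ± 0.30, SE, adjusted p = 0.00821). Spag5, a spindle and kinetochore protein, ranged from 492 to 907 on E2F1 arrays and from 70.0 to 305 on CMV arrays (5.48-fold higher, log2 2.45 ± 0.27, SE, adjusted p = 0.00171). Hmmr, a microtubule-binding hyaluronan receptor, ranged from 404 to 794 on E2F1 arrays and from 131 to 320.0 on CMV arrays (3.68-fold higher, log2 1.88 ± 0.26, SE, adjusted p = 0.00359), with 1.06 for its second probe set.

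Of the passenger complex and cytokinesis genes, 3 of 3 rose. Racgap1, the GTPase-activating protein of the central spindle, had 2639 and 1874 in E2F1 cells in serum, against 219.8 and 858 in CMV cells; 2512 and 1714 in E2F1 cells with LY294002, against 299 and 138 in CMV cells; and 1552 and 1789 in deprived E2F1 cells, against 175 in deprived CMV cells. Its groups did not overlap (7.44-fold higher, log2 2.90 ± 0.37, SE, adjusted p = 0.00277). Birc5, survivin, which places the passenger complex at centromeres, had 943 and 827 in E2F1 cells in serum, against 196 and 435 in CMV cells; 990.1 and 511 in E2F1 cells with LY294002, against 239 and 142 in CMV cells; and 476 and 501 in deprived E2F1 cells, against 165 in deprived CMV cells. The lowest E2F1 array was just above the second CMV serum array, and the average change was 3.09-fold (log2 1.63 ± 0.27, SE, adjusted p = 0.00642). Cdca8, borealin, another subunit of that complex, ranged from 458 to 813 on E2F1 arrays and from 37.4 to 308 on CMV arrays (log2 2.63 ± 0.24, SE, adjusted p = 0.000908).

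The APC/C and anaphase genes rose in 5 of 5 cases and held the members whose arrays overlapped. Espl1, separase, which opens cohesin at anaphase, had 1521 and 1268 in E2F1 cells in serum, against 57.8 and 288 in CMV cells; 1440.3 and 758 in E2F1 cells with LY294002, against 107 and 50.8 in CMV cells; and 1152 and 1074 in deprived E2F1 cells, against 70.3 in deprived CMV cells. It was the gene of this function whose arrays were all apart (log2 3.50 ± 0.39, SE, adjusted p = 0.00181). Cdc20, the activator of the APC/C that the spindle checkpoint holds back, had 681 and 527 in E2F1 cells in serum, against 149 and 322 in CMV cells; 797 and 427 in E2F1 cells with LY294002, against 264 and 162 in CMV cells; and 338 and 315 in deprived E2F1 cells, against 208 in deprived CMV cells. Within each medium its groups were apart, although the second deprived E2F1 array lay below the second CMV serum array, and the average change was 2.20-fold (log2 1.14 ± 0.26, SE, adjusted p = 0.0224). Cdc20 has 5 probe sets. The 3 brightest were called higher, at 1.14, 2.06 and 1.28, and the 2 dimmest were not, at -0.06 and 0.16.

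Pttg1, securin, the inhibitor of separase, ranged from 1447 to 3328 on E2F1 arrays and from 183 to 1540.2 on CMV arrays (5.06-fold higher, log2 2.34 ± 0.41, SE, adjusted p = 0.00823). Ube2c, the ubiquitin-conjugating enzyme that works with the APC/C, ranged from 807 to 2509 on E2F1 arrays and from 137 to 891 on CMV arrays (4.49-fold higher, log2 2.17 ± 0.39, SE, adjusted p = 0.00904). Cdca3, a protein of mitotic entry, ranged from 1315 to 3034 on E2F1 arrays and from 263 to 1337 on CMV arrays (5.09-fold higher, log2 2.35 ± 0.31, SE, adjusted p = 0.00312). In all 3 the top of the CMV range was the second serum array.

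In each medium taken alone, all 34 genes had both E2F1 arrays above all CMV arrays of that medium, which held for 31.5% of all probe sets in serum, 21.0% with LY294002 and 31.8% in deprivation. In serum the median log2 change was 1.91. Limma called 0 of 34 genes at an adjusted p under 0.05, against 0.290% of all probe sets called higher. All 34 had an unadjusted p under 0.05, as did 2465 of all 15866 probe sets in either direction. The smallest adjusted p belonged to Mad2l1 (log2 1.47 ± 0.26, SE, adjusted p = 0.0733), followed by Cdk1 (1.83 ± 0.35, SE, adjusted p = 0.0809), Espl1 (3.23 ± 0.63, SE, adjusted p = 0.0817) and Ncapd2 (1.97 ± 0.39, SE, adjusted p = 0.0858). Without the second CMV serum array the median in serum was 2.74, and without the first it was 1.18.

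With LY294002 the change was above 0 in all 34 genes, with a median of 2.79. Of these, 27 were called higher, against 3.78% of all probe sets. They were 8 of 9 cyclins and kinases, 4 of 5 kinesins, 4 of 4 kinetochore genes, 3 of 4 condensin and chromosome structure genes, 3 of 4 spindle assembly genes, 3 of 3 passenger complex genes and 2 of 5 APC/C and anaphase genes. The largest changes were Kif18b (4.84 ± 0.78, SE, adjusted p = 0.02), Mki67 (4.39 ± 0.64, SE, adjusted p = 0.0161), Kif20a (4.08 ± 0.92, SE, adjusted p = 0.0459) and Tacc3 (3.83 ± 0.79, SE, adjusted p = 0.0377). The 7 that did not pass were Cdkn3, Kif2c, Smc4, Hmmr, Cdc20, Ube2c and Pttg1, with Ube2c at 2.66 ± 0.63, SE, adjusted p = 0.0527 and Smc4 at 0.70 ± 0.28, SE, adjusted p = 0.206. The count depended on the arrays: it was 3 without the second CMV array with LY294002, 5 without the second E2F1 one, 15 without the first CMV one and 13 without the first E2F1 one. Arrays of other media also moved it through the shared spread, to 12 without either deprived E2F1 array and 17 without either E2F1 serum array.

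In deprivation too, the change was above 0 in all 34 genes, with a median of 2.85. Of these, 10 were called higher, against 2.19% of all probe sets. They were Cdk1, Kif18b, Kif22, Cenpe, Spc24, Ncapd2, Top2a, Mki67, Cdca8 and Espl1, which is 1 of 9 cyclins and kinases, 2 of 5 kinesins, 2 of 4 kinetochore genes, 3 of 4 condensin and chromosome structure genes, 0 of 4 spindle assembly genes, 1 of 3 passenger complex genes and 1 of 5 APC/C and anaphase genes. At an unadjusted p under 0.05, 32 of 34 passed, against 3298 of 15866 probe sets in either direction. The 32 included all 4 spindle assembly genes, whose changes ran from 1.36 to 2.47. The largest were Kif18b (5.56 ± 0.96, SE, adjusted p = 0.0314), Mki67 (4.95 ± 0.79, SE, adjusted p = 0.0282), Spc24 (4.52 ± 0.58, SE, adjusted p = 0.0211) and Espl1 (3.71 ± 0.77, SE, adjusted p = 0.0487), while Cdc20 (0.61 ± 0.51, SE, adjusted p = 0.548) and Smc4 (0.60 ± 0.35, SE, adjusted p = 0.374) were smallest. This comparison rests on 1 CMV array, assumed to vary like the other groups; 0 genes passed without either deprived E2F1 array, 3 without either E2F1 serum array, and 17 without either CMV serum array.

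**Figure D4:**
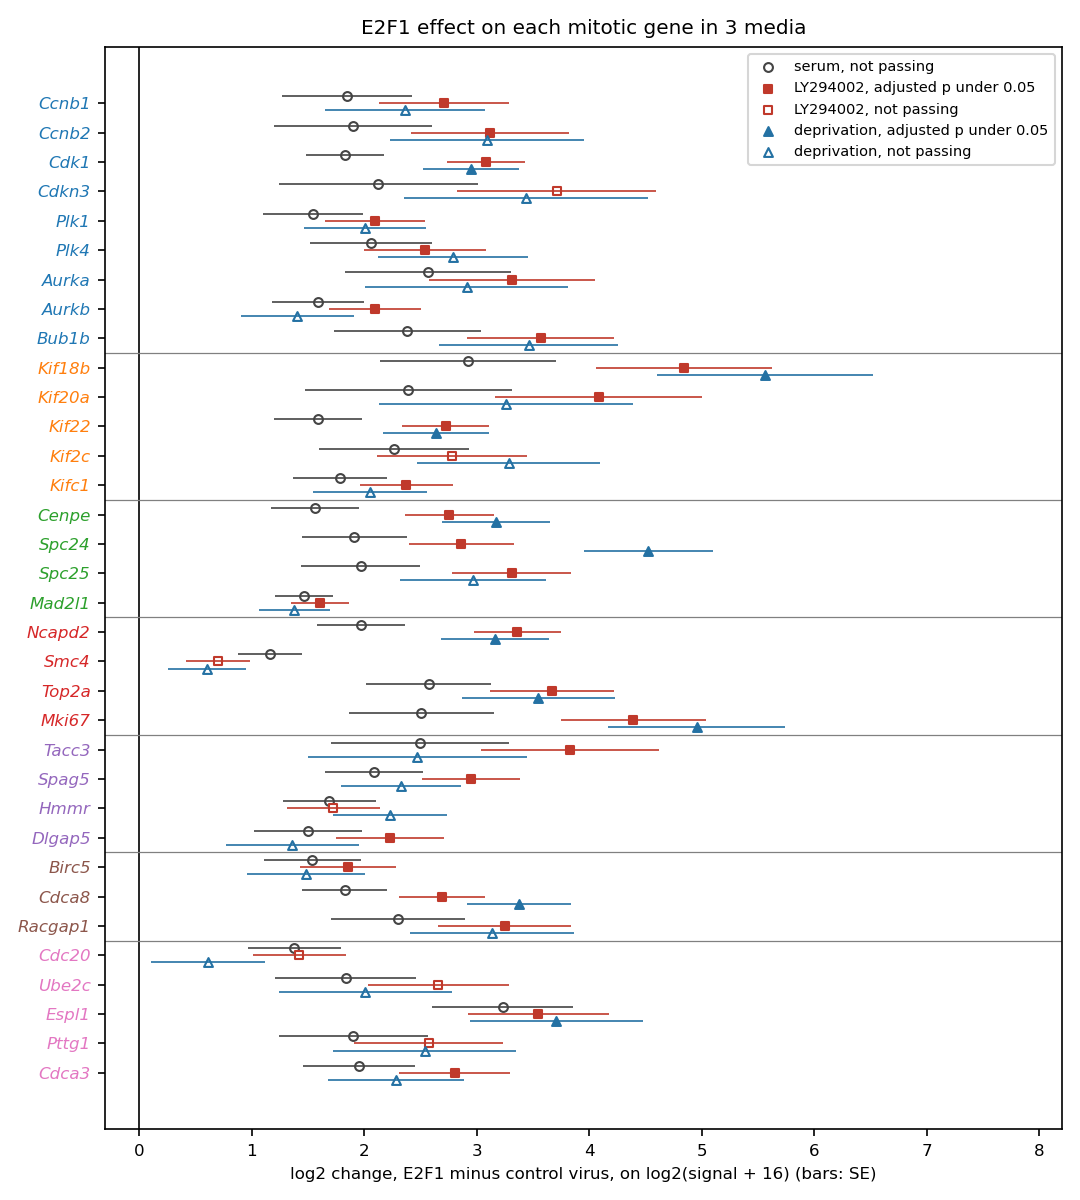
Log2 change between E2F1 and CMV cells (horizontal axis, E2F1 minus CMV on log2(signal + 16), bars are SE) for the 34 mitotic genes in serum (circles), with LY294002 (squares) and in deprivation (triangles); filled symbols passed an adjusted p under 0.05. All points lie above 0, and 0 of 34 are filled in serum, 27 with LY294002 and 10 in deprivation.

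The size of the E2F1 effect was then compared between media, to ask whether LY294002 or lack of serum altered it. With LY294002 it was larger than in serum in 33 of 34 genes, by a median of 0.86. Of all 15866 probe sets, 7044 had a difference above 0. In limma 0 of 34 genes passed, as did 0% of all probe sets. Against 998 of 15866 probe sets, 2 of 34 genes had an unadjusted p under 0.05. Those with the smallest p were Cdk1 (1.26 ± 0.49, SE, adjusted p = 0.77), Ncapd2 (1.39 ± 0.55, SE, adjusted p = 0.77), Cenpe (1.19 ± 0.55, SE, adjusted p = 0.792) and Mki67 (1.88 ± 0.91, SE, adjusted p = 0.809), and the exception was Smc4 (-0.46 ± 0.40, SE, adjusted p = 0.893). In deprivation the median difference from serum was 0.68, with 0 of 34 passing, against 0% of all probe sets. Under an unadjusted p of 0.05 were 4 of 34 genes, against 1542 of 15866 probe sets. Kif18b had the largest difference (2.64 ± 1.24, SE, adjusted p = 0.54) and Spc24 the smallest p (2.61 ± 0.74, SE, adjusted p = 0.389), followed in p by Cdca8 (1.55 ± 0.60, SE, adjusted p = 0.477), Cenpe (1.61 ± 0.62, SE, adjusted p = 0.477) and Mki67 (2.45 ± 1.01, SE, adjusted p = 0.498). The difference was above 0 in 27 of 34 genes, as in 6342 of 15866 probe sets. The lowest were Cdc20 (-0.77 ± 0.66, SE, adjusted p = 0.727) and Smc4 (-0.56 ± 0.45, SE, adjusted p = 0.711), with Aurkb at -0.18 ± 0.65 and Mad2l1 at -0.09 ± 0.41 (SE). Both differences share the CMV serum arrays. Without the second of these the medians were 0.10 with LY294002 and -0.14 in deprivation, and without the first they were 1.62 and 1.50. Without the second CMV array with LY294002 the median difference for the inhibitor was 0.40, and without the first it was 1.32; it was 0.54 without the first E2F1 array with LY294002.

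Within E2F1 cells, deprivation lowered no gene past the threshold, with 0 of 34 called against 0.233% of all probe sets in either direction. At an unadjusted p under 0.05 were 0 of 34 genes, against 3106 of 15866 probe sets. The median change between deprived and serum-fed E2F1 cells was -0.46, against -0.10 over all probe sets. In 24 of 34 genes both deprived arrays were below both serum arrays, as in 37.0% of all probe sets; these included 5 of 5 APC/C and anaphase genes, 3 of 3 passenger complex genes and 6 of 9 cyclins and kinases. In 1 gene, Mki67 (0.28 ± 0.64, SE, adjusted p = 0.845), both were above, as in 23.1% of all probe sets. By function the medians were -1.09 for APC/C and anaphase, -0.59 for cyclins and kinases, -0.52 for spindle assembly, -0.48 for kinesins, -0.44 for passenger complex, -0.33 for condensin and chromosome structure and -0.26 for the kinetochore.

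The 5 APC/C and anaphase genes all stood lower in deprived E2F1 cells, and 0 of 5 passed the threshold. Ube2c had 807 and 964 in deprived E2F1 cells, against 2229.9 and 1790.1 in E2F1 cells with serum (log2 -1.17 ± 0.63, SE, adjusted p = 0.346). Pttg1 had 1447 and 1452 in deprived E2F1 cells, against 3328 and 2996 in E2F1 cells with serum (log2 -1.11 ± 0.66, SE, adjusted p = 0.387). For Cdca3 the signals were 1371 and 1315 in deprived E2F1 cells, against 3034 and 2738 in E2F1 cells with serum (log2 -1.09 ± 0.49, SE, adjusted p = 0.273). In these 3 genes both deprived arrays lay well below both serum arrays. Cdc20 had 338 and 315 in deprived E2F1 cells, against 681 and 527 in E2F1 cells with serum (log2 -0.84 ± 0.42, SE, adjusted p = 0.312). Espl1 had 1152 and 1074 in deprived E2F1 cells, against 1521 and 1268 in E2F1 cells with serum, the smallest difference of the 5 (log2 -0.32 ± 0.63, SE, adjusted p = 0.813). Outside this function, Bub1b (-0.89), Birc5 (-0.83), Dlgap5 (-0.80), Kif20a (-0.78), Top2a (-0.77) and Aurkb (-0.76) had log2 changes near that of Cdc20, also uncalled. A lower level in deprived E2F1 cells was thus not particular to the APC/C and anaphase genes. Of all 34 genes 32 lay below 0, as did 9491 of 15866 probe sets, and 2 above, Mki67 and Kif18b. Kif18b stood at 0.17 ± 0.78 (SE), with deprived E2F1 arrays inside the range of E2F1 serum arrays.

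LY294002 in E2F1 cells gave a median change of -0.11, with 0 of 34 genes called against 0% of all probe sets. The sign of that median rested on single arrays: it was 0.22 without the second E2F1 array with LY294002 and -0.44 without the first, and -0.26 without the second E2F1 serum array and -0.02 without the first. Both arrays with the inhibitor were below both without it in 2 genes, Smc4 (-0.34 ± 0.28, SE, adjusted p = 0.643) and Pttg1 (-0.56 ± 0.66, SE, adjusted p = 0.747), as in 24.6% of all probe sets, and above in 1, Mki67 (0.27 ± 0.64, SE, adjusted p = 0.882), as in 19.0%. Cdk1 stood at 0.22 ± 0.35 (SE). The 2 E2F1 arrays with LY294002 differed from each other by a median of -0.70, with Ube2c at 2509 and 899 on them.

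In CMV cells with LY294002, 33 of 34 genes lay below CMV cells in serum, as did 7582 of 15866 probe sets. The median of the 34 genes was -1.01, yet 0 of 34 were called, against 0% of all probe sets. An unadjusted p under 0.05 was found for 6 of 34 genes, against 1050 of 15866 probe sets. Ncapd2 stood at -1.24 ± 0.39, SE, adjusted p = 0.722, and Mki67 at -1.61 ± 0.64, SE, adjusted p = 0.742. The gene above 0 was Smc4 (0.12 ± 0.28, SE, adjusted p = 0.947). Deprived CMV cells stood at a median of -1.26 from CMV cells in serum, with 0 of 34 called against 0.240% of all probe sets. At an unadjusted p under 0.05 were 11 of 34 genes, against 2217 of 15866 probe sets. Spc24 (-3.19 ± 0.58, SE, adjusted p = 0.0888), Cdca8 (-1.99 ± 0.46, SE, adjusted p = 0.15) and Cdk1 (-1.47 ± 0.43, SE, adjusted p = 0.21) were the lowest in p. Both comparisons use the CMV serum arrays: without the second the medians were -0.25 with LY294002 and -0.48 in deprivation, and without the first -1.73 and -2.04. The median with LY294002 was -0.48 without the second CMV array with the inhibitor. Measured from each gene's mean over all arrays, the median of the 34 genes was -1.11 and -2.07 on CMV arrays with LY294002, -1.94 on the deprived CMV array, and -1.35 and 0.02 on CMV serum arrays.

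**Figure D5:**
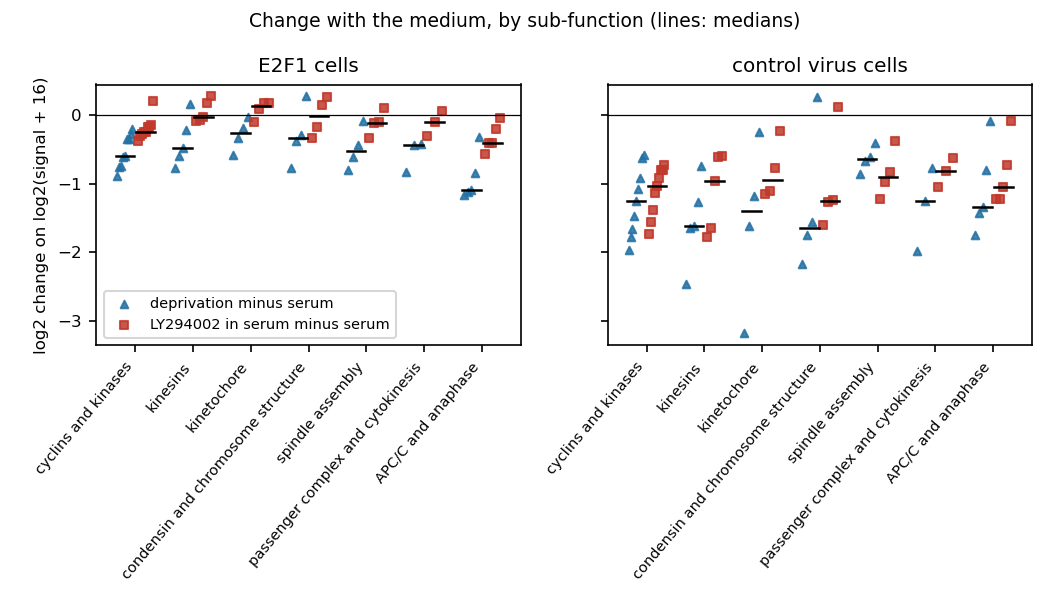
Log2 change on log2(signal + 16) with deprivation (triangles) and LY294002 (squares), each minus serum, for the 34 mitotic genes by function (horizontal axis), in E2F1 cells (left) and in CMV cells (right); lines are medians. In E2F1 cells with deprivation the APC/C and anaphase genes have the lowest median, -1.09, and no gene passed the threshold in either panel.

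Other mitotic genes outside the 54 were looked at as a longer list, of which 58 of 105 were measured. On average over media the change with E2F1 was above 0 in 49 of 58, with a median of 0.61, against -0.04 over all probe sets. Of the 58 genes, 33 were called higher and 0 lower, against 9.23% of all probe sets called higher. Among them were the transcriptional activators of the late cell cycle genes, Foxm1 (3.13 ± 0.41, SE, adjusted p = 0.00293) and Mybl2, which encodes B-Myb (5.90-fold higher, log2 2.56 ± 0.21, SE, adjusted p = 0.000843). Melk, a kinase of dividing cells (2.96 ± 0.26, SE, adjusted p = 0.000908), Kif15, a spindle motor (2.52 ± 0.32, SE, adjusted p = 0.0026), Iqgap3, a scaffold protein (2.48 ± 0.24, SE, adjusted p = 0.00113), and Cenpi, a centromere protein (2.46 ± 0.25, SE, adjusted p = 0.00119), also rose. In complexes grouped after the values were seen, 9 of 11 other kinetochore and centromere genes were called higher (median 1.21). So were 4 of 7 genes of cohesin and its regulators (median 0.55). Of the APC/C's own subunits, 1 of 9 was called higher, Anapc11 (0.96 ± 0.15, SE, adjusted p = 0.00518), with a median of 0.01; this share is near the 9.23% of all probe sets called higher.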

How the data were processed

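RNA of 11 samples was labelled with biotin and hybridised to Affymetrix rat arrays. The values deposited by the authors are linear signal intensities for each probe set and array; per the submitters' processing notes MAS5 and RMA were named, without their roles or versions. After trimming 2% at each end, every array's mean was 500. Of 15923 probe sets, 57 controls were left out. An offset of 16 was added to each signal before taking log2, and arrays were not scaled again. Limma 3.58.1 in R 4.3.3 fitted a mean for each of 6 groups to all 11 arrays (5 residual degrees of freedom), with Benjamini-Hochberg adjustment over 15866 probe sets in each of 10 comparisons and a threshold of 0.05; errors are standard errors. A gene's fold is given only where each compared array had a signal of at least 64. The median log2 value per array ran from 7.56 to 7.80.

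The genes, lists, functions and tests were chosen with earlier results of these data known. Named with full values were the largest and smallest average change in each function and the main mitotic regulators; for each medium and difference, up to 4 genes with the largest change or, with none called, the smallest p; and the 6 other mitotic genes with the largest average change. The remaining genes are given by range. The limma fit was tested on simulated arrays with known changes added to all E2F1 arrays, for the average over media only. Replicate numbers were not used to pair the arrays in the main fit. The differences of array 2 minus array 1 correlated between -0.02 and 0.07 across groups, except 0.30 between the E2F1 and CMV pairs with LY294002. Whether the LY294002 arrays of one number were paired is not stated. Alternatives were quantile normalization, median centring, offsets of 1 and 64, leaving out the dimmest 30%, eBayes with trend and robust options, a replicate block, averaging a gene's probe sets, the compared groups alone, and leaving out each array. Exclusions of pairs of arrays were added after seeing the data. Promoters came from RefSeq.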

Additional observations from a re-analysis of the deposited data

How the results depend on the processing

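The average over media stayed at 33 or 34 of 34 genes called under every alternative run. Leaving out the only deprived CMV array gives no value for the average or for the 3 other comparisons that use it. Each count under an alternative, here and above, comes from its own fit. The shares of all probe sets given above belong to the main fit and do not apply to these counts. In serum the count was 0 to 10 with 1 array left out, 4 without the dimmest 30% of probe sets and 7 without the second CMV serum and second E2F1 LY294002 arrays. With LY294002 it was 3 to 27 with 1 array left out, 17 with an offset of 1, and 0 in the compared groups alone or without both second LY294002 arrays. In deprivation it was 0 to 17 with 1 array left out, 6 with an offset of 1, 19 without the dimmest 30%, 16 with trend and robust options, 0 in the compared groups alone, and 19 without the second CMV serum and second E2F1 LY294002 arrays. The cause of these moves was not tested. A replicate block gave 3 in deprivation, 18 with LY294002 and 34 on average. What the replicate numbers stand for is not stated. Whether something shared by arrays of one number moved these counts was not tested. The other 6 comparisons had 0 calls under every alternative run. All medians of E2F1 against CMV stayed above 0.

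Values that turned sign were all uncalled. The deprivation difference of Mad2l1 was 0.00012 after quantile normalization and 0.049 after median centring, and ran from -0.31 to 0.14 with 1 array left out; that of Aurkb ran from -0.62 to 0.25. In E2F1 cells LY294002 gave Cdk1 -0.0020 to 0.44, Kif22 -0.00017 to 0.35, Ncapd2 -0.048 to 0.34, Hmmr -0.79 to 0.11 and Aurkb -0.67 to 0.083 with 1 array left out. Without both second LY294002 arrays, and without the second CMV serum and second E2F1 LY294002 arrays, Hmmr was 0.11 and Aurkb 0.083. In CMV cells LY294002 gave Smc4 -0.11 to 0.35, and deprivation in E2F1 cells gave Kif18b -0.21 to 0.56. Signals near or under the offset on at least 1 CMV array limit Cdkn3, Bub1b, Aurka, Plk4, Kif18b, Kif20a, Cenpe, Spc24 and Tacc3, and no detection calls were used.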
